A study of Mus musculus with 10 samples.

Results

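Ucp1, which encodes the uncoupling protein of brown adipocytes, lies on chromosome 8 of the mouse, and its promoter drives Cre recombinase in the mice studied here. Genes around Ucp1 were taken as all annotated genes of chromosome 8 whose first base lies between positions 82000000 and 85000000 of GRCm39. Ucp1 itself, Dnajb1 and Prkaca were left out, which gave 79 of 55414 genes. RNA sequencing (RNAseq) of interscapular brown adipose tissue (iBAT) was available for 10 male C57BL/6J mice aged 12 to 14 weeks and fed normal chow. All mice carried 2 floxed RetSat alleles (RetSat flox/flox). The 5 control mice had no Cre (Ucp1-Cre (-), Cre-), and the other 5 carried the transgene (Ucp1-Cre (+), Cre+) and so lacked RetSat in cells that use the Ucp1 promoter. Every Cre+ mouse therefore differs from the Cre- mice in the transgene and in RetSat, and effects of these on a gene cannot be told apart in this design. How much DNA around Ucp1 the transgene holds is not given in the sources used here.

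Brown adipocytes burn fatty acids to make heat, and UCP1 does so by letting protons leak back across the inner mitochondrial membrane. Its promoter is used as a driver of Cre because it is active almost only in brown and beige adipocytes. Transgenes built from large genomic clones can carry genes that lie next to the promoter that was used, and neighbours on a chromosome can also share enhancers. Neither was tested here, and the comparison below gives only how the level of each neighbour differed between mice with and without Cre.

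Total counts were between 91903095 and 132499312 per library. RetSat, the deleted gene, ranged from 151 to 255 CPM (counts per 1000000 counts of a library, scaled by TMM) in Cre- mice and from 18 to 39 CPM in Cre+ mice. All 10 brown adipocyte markers, Ucp1 among them, were detected, with a summed level of 8183 to 10321 CPM in Cre- and 8334 to 10953 CPM in Cre+ mice. Summed skeletal muscle markers were 482 CPM in Cre- replicate 2 and 233 CPM in Cre+ replicate 4, and at most 18.2 CPM in the other libraries. Summed levels of macrophage, T cell, B cell, endothelial, fibroblast, red blood cell and Schwann cell markers and of immediate early genes overlapped between the genotypes, and edgeR called 0 genes of these lists. Of 4 B cell markers, 3 had an unadjusted p under 0.05 from edgeR, as did 2 of 5 endothelial markers and 2 of 6 immediate early genes. So did 1 of 5 fibroblast, 1 of 5 red blood cell and 1 of 10 brown adipocyte markers, and 0 in the other lists. Over all genes tested, 12.3% reached this. Sums of the 4 B cell markers were 0.866 to 1.95 CPM in Cre- and 1.46 to 2.52 CPM in Cre+ mice. In bulk tissue, fewer cells of a type and less RNA per cell cannot be told apart.

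Ucp1 spans positions 84016981 to 84025081 on the forward strand. The gene before it is Tbc1d9 (ENSMUSG00000031709.16, 83891981 to 83999563), which is read in the same direction and ends 17.4 kb before Ucp1 starts. Its protein has a TBC domain, the fold of proteins that switch off Rab GTPases of membrane traffic. The gene after it is Elmod2 (ENSMUSG00000035151.13, 84039261 to 84059115). It is read toward Ucp1 from the opposite strand and ends 14.2 kb from it. ELMOD2 stimulates GTP hydrolysis by the small GTPase ARL2. The start sites of Tbc1d9 and Elmod2 lie 125 kb and 42.1 kb from that of Ucp1. A pseudogene, Gm17999, lies within the body of Tbc1d9 and shares no exonic base with it. Gm10645 shares 819 of the 5887 exonic bases of Tbc1d9 on the other strand, and had 7 counts in all libraries together. Elmod2 shares no exonic base with another gene.

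The promoters of these genes are shown because Tbc1d9 and Elmod2 lie on either side of Ucp1 and the Ucp1 promoter is the driver of Cre. They are RefSeq sequences of GRCm38.p6, an older build than that of the counts, from 250 bases before to 50 bases after the start site, in the direction of the gene. Of the 79 genes, 26 had a promoter in this set. Capitals mark matches on either strand to CCAAT or GGGCGG. Both strands were also searched for TATAAA and for the cAMP response element (TGACGTCA). These motifs do not overlap each other in these windows.
Tbc1d9 (chr8:83165102-83165401, forward strand): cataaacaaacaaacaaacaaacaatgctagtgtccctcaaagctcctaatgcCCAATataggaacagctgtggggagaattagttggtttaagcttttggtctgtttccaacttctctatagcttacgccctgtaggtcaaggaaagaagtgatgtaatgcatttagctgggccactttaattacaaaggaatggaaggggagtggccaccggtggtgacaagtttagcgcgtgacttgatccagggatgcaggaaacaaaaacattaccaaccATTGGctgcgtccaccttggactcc
Elmod2 (chr8:83332437-83332736, reverse strand): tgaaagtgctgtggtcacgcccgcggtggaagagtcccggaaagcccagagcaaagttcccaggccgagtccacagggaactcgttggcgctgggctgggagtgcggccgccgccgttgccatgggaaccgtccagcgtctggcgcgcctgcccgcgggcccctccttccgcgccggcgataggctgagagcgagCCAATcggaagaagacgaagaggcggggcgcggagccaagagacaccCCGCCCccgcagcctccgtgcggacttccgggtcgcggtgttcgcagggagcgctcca
Ucp1 (chr8:83290098-83290397, forward strand): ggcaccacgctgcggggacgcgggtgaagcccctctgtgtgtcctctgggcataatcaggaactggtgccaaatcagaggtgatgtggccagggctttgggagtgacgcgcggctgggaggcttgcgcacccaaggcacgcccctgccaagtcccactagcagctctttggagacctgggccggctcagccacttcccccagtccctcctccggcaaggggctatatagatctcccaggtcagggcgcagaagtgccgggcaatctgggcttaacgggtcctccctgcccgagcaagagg

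The 3 promoters differ in base composition. That of Elmod2 has 70% G and C and 36 CpG dinucleotides, that of Ucp1 has 64.7% and 15, and that of Tbc1d9 has 45% and 5, where the median over 32851 promoters is 52.7% and 7. Tbc1d9 has 2 matches to CCAAT, 197 bases before and 26 bases after the start site. Elmod2 has 1 match to CCAAT, 55 bases before the start site, and 1 to GGGCGG, 8 bases before it. CCAAT occurs in 37.4% and GGGCGG in 35.7% of all promoters of this length. TATAAA (13.6% of promoters) and TGACGTCA (1.79%) have no match in any of the 3 windows, nor has Ucp1 a match to the other motifs.

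Tbc1d9 was higher in iBAT of Cre+ mice and was the only gene of the region that edgeR called. It had 5.85, 5.62, 6.23, 4.6 and 5.38 CPM in Cre- replicates 1 to 5, and 15.3, 13.5, 10.3, 15.4 and 10.2 CPM in Cre+ replicates 1 to 5. The lowest Cre+ mouse thus lay well above the highest Cre- mouse. The means were 5.54 ± 0.608 CPM (SD, n = 5) and 13 ± 2.55 CPM (SD, n = 5), a 2.34-fold difference on the fitted scale. The log2 fold change was 1.23 (95% interval 0.93 to 1.53, adjusted p = 0.0057 in the quasi-likelihood fit of edgeR). By p this gene ranked 2 among 17690 genes tested and 1 among 945 on chromosome 8. Over all genes, 6 were called higher (0.0339% of genes tested) and 29 in either direction (0.164%). DESeq2 (adjusted p = 3.6e-13) and limma voom with sample quality weights (adjusted p = 0.00277) called Tbc1d9 as well, among 1.06% of genes that DESeq2 called higher and 0.831% that voom called in either direction. The rise was found without any single library, with log2 fold changes of 1.16 to 1.30, and without both libraries high in muscle transcripts. Gm17999 inside its body had 0.211 to 0.435 CPM in Cre- and 0.173 to 0.498 CPM in Cre+ mice, so there the groups overlapped.

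Elmod2 was also higher in every Cre+ mouse than in every Cre- mouse (1.20% of all genes tested were), yet its call depended on the tool. It had 51.8, 56.8, 78.7, 73.0 and 43.9 CPM in Cre- replicates 1 to 5, and 85.7, 106, 86.6, 174 and 83.5 CPM in Cre+ replicates 1 to 5. Cre+ replicate 4 stood far above the others, and the lowest Cre+ mouse was close to the highest Cre- mouse. The log2 fold change was 0.82 (95% interval 0.29 to 1.35), with an adjusted p of 0.22 from edgeR, 0.18 from voom and 0.0115 from DESeq2. DESeq2, the tool that the authors used for their own comparison, called 2.28% of all genes tested, against 0.164% by edgeR. Without Cre+ replicate 4 the value was 0.57 (SE 0.16, adjusted p = 0.109 from edgeR). Cre+ replicate 4 is 1 of the 2 libraries high in muscle transcripts, and without both of them the log2 fold change of Elmod2 was 0.55 (SE 0.18, adjusted p = 0.181 from edgeR). Cre- replicate 2, the other of these libraries, had 56.8 CPM of Elmod2, within the range of the other Cre- mice. Whether muscle transcripts bear on Elmod2 was not tested.

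Ucp1, which lies between them, did not pass the test. It had 4021, 3883, 3577, 5145 and 4490 CPM in Cre- replicates 1 to 5, and 5921, 5339, 4008, 3678 and 4985 CPM in Cre+ replicates 1 to 5. The groups overlapped, and Cre+ replicate 4, the highest mouse for Elmod2 and for Tbc1d9, was the lowest of the Cre+ mice for Ucp1. The log2 fold change of Ucp1 was 0.18 (95% interval -0.11 to 0.47, adjusted p = 0.623 from edgeR). Counts of Ucp1 do not tell transcripts of the endogenous gene from any that a transgene makes.

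**Figure D1:**
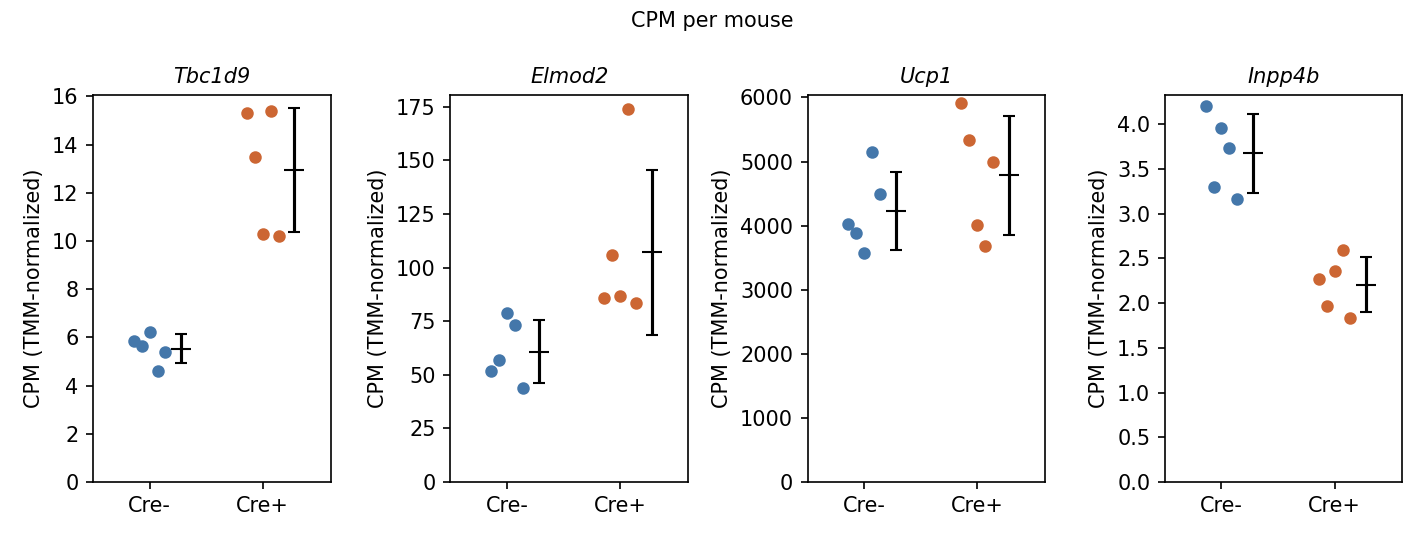
CPM (scaled by TMM) of Tbc1d9, Elmod2, Ucp1 and Inpp4b in single mice (points), with the mean and SD of each genotype (bars, n = 5). Tbc1d9 and Elmod2 are higher in all Cre+ mice, Inpp4b is lower in all Cre+ mice, and the genotypes overlap for Ucp1.

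Beyond Elmod2, the next genes were close to silent in iBAT. Mgat4d (84075100 to 84108949) and the pseudogene Gm15660, 50 and 54.1 kb after Ucp1, are named here after their values were seen, since they had too few counts to be tested. Mgat4d had 0 counts in all 5 Cre- libraries and 1, 3, 0, 2 and 0 counts in Cre+ replicates 1 to 5. Gm15660 had 0 counts in all Cre- libraries and 1, 2, 4, 0 and 0 in Cre+ replicates 1 to 5. Of 1009 genes of the whole annotation with a sum of 6 or 7 counts, 132 (13.1%) had all of them in Cre+ mice and 124 (12.3%) all in Cre- mice. The shares of 13.1% and 12.3% do not consider over how many libraries the counts were spread, and both genes had theirs in more than 1 library. They also treat each gene singly, whereas Gm15660 lies within the body of Mgat4d. Whether the counts of these genes differ by genotype was not tested. Because both mates of a pair could add a count, these sums may stand for fewer fragments. Clgn, which encodes the testis chaperone calmegin and starts 91.4 kb after Ucp1, had 0.0843 to 0.193 CPM in Cre- and 0.038 to 0.309 CPM in Cre+ mice. Its log2 fold change of 0.17 had a wide 95% interval of -0.85 to 1.19.

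From 100 to 500 kb on either side, 11 of 23 genes were tested and edgeR, DESeq2 and voom called 0 of them. At an unadjusted p under 0.05, 2 genes were higher, Gipc1 among them, and Rnf150 was lower (12.3% of all genes tested reached this in either direction). Scoc, a coiled-coil protein of the Golgi and the first well expressed gene after Elmod2, had 25.6 to 29.5 CPM in Cre- and 22.4 to 29.9 CPM in Cre+ mice. The 95% interval of its log2 fold change (-0.11) ran from -0.30 to 0.07, with its upper end under the lower ends for Tbc1d9 and Elmod2. Rnf150, a RING finger protein and the neighbour of Tbc1d9 on the far side from Ucp1, had 33.4, 44.9, 38.3, 30.9 and 46.4 CPM in Cre- replicates 1 to 5. In Cre+ replicates 1 to 5 it had 25.2, 28.4, 31.0, 37.7 and 25.9 CPM. The highest Cre+ mouse, again replicate 4, reached into the Cre- range, and Cre+ replicate 3 lay just above the lowest Cre- mouse. The log2 fold change of Rnf150 was -0.39 (95% interval -0.68 to -0.10, adjusted p = 0.268 from edgeR), opposite in sign to that of Tbc1d9.

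Of the other well expressed genes given here for this stretch, after Ucp1, all but Gipc1 had 95% intervals that included 0. Ndufb7, a subunit of complex I, had 170 to 204 CPM in Cre- and 162 to 228 CPM in Cre+ mice, with a difference of 0.13 on the log2 scale (95% interval -0.09 to 0.34). Tecr, the enoyl-CoA reductase that completes each round of very long chain fatty acid elongation, had 0.10 (-0.11 to 0.30). Gipc1, a PDZ scaffold of receptor traffic, had 16.9 to 20.4 CPM in Cre- and 17.8 to 25.5 CPM in Cre+ mice and a log2 difference of 0.30 (0.08 to 0.51, adjusted p = 0.255 from edgeR). The RNA helicase gene Ddx39 had -0.04 (-0.32 to 0.24), and Adgre5, an adhesion receptor of leukocytes that overlaps it, had -0.02 (-0.17 to 0.12). Strand was not used in counting, so values of overlapping genes are uncertain.

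**Figure D2:**
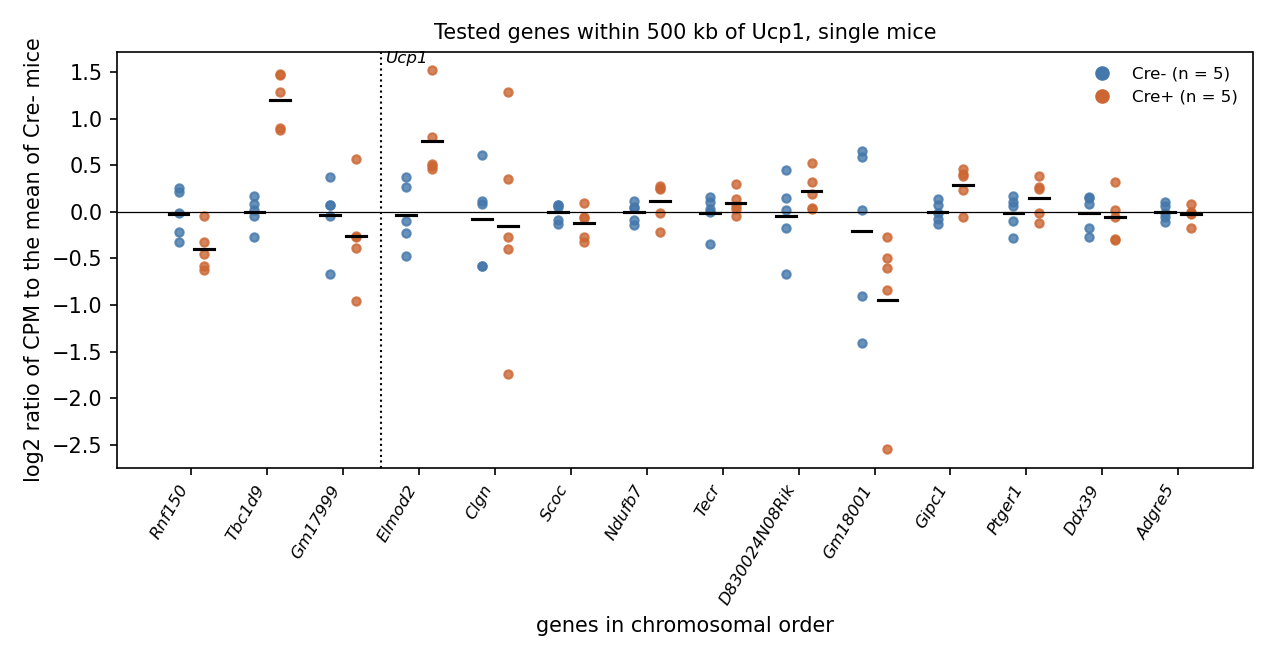
Log2 ratio of CPM to the mean CPM of the Cre- mice for 14 of the 15 tested genes within 500 kb of Ucp1, in chromosomal order, for single mice (points) with the mean of the log2 ratios (black lines). The dotted line marks the place of Ucp1, and Tbc1d9 and Elmod2 on its 2 sides are the only genes here whose genotypes do not overlap.

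Between 500 kb and 1 Mb from Ucp1, 20 of 41 genes were tested, and all 3 tools again called 0. Their log2 fold changes ran from -0.40 to 0.40 with a median of 0.08. Mri1, an isomerase of the methionine salvage pathway, had 8.40 to 9.68 CPM in Cre- and 9.40 to 11.2 CPM in Cre+ mice, with a log2 difference of 0.23 (95% interval 0.03 to 0.42, adjusted p = 0.331 from edgeR). Samd1, a chromatin protein, had -0.23 (-0.48 to 0.01), the histone chaperone gene Asf1b had -0.20 (-0.48 to 0.08) and Adgrl1, the adhesion receptor latrophilin, had -0.14 (-0.36 to 0.09). The transcription factor gene Rfx1 had 0.16 (-0.03 to 0.34), the receptor gene Il27ra 0.16 (-0.25 to 0.57), the ubiquitin ligase receptor gene Dcaf15 0.11 (-0.28 to 0.51), Ccdc130 0.09 (-0.21 to 0.39) and Cc2d1a 0.07 (-0.13 to 0.28). On the side before Ucp1, the cytokine gene Il15 had 2.90 to 5.16 CPM in Cre- and 2.84 to 9.42 CPM in Cre+ mice. The upper end of the latter came from Cre+ replicate 3 alone, and the log2 fold change of 0.17 became -0.27 without it.

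The single tested gene over 1 Mb away, Inpp4b, was the one other tested gene of the region whose genotypes did not overlap. It encodes a phosphatase of membrane phosphoinositides (ENSMUSG00000037940.18, 82069185 to 82854543) and ends 1162 kb before Ucp1. It had 4.21, 3.30, 3.96, 3.74 and 3.17 CPM in Cre- replicates 1 to 5, and 2.27, 1.97, 2.36, 2.60 and 1.83 CPM in Cre+ replicates 1 to 5, so all Cre+ mice were lower, as for 1.47% of all genes tested. The log2 fold change of Inpp4b was -0.74 (95% interval -1.04 to -0.44). With an adjusted p of 0.0598 edgeR did not call it, whereas DESeq2 (adjusted p = 3.3e-05, with 1.22% of genes called lower) and voom (adjusted p = 0.0221) did, as did edgeR without Cre+ replicate 4 (adjusted p = 0.0134). Without that library edgeR called 331 of 17997 genes, against 29 of 17690 with it, so more calls there were not particular to Inpp4b. By p it ranked 3 among the 945 genes tested on chromosome 8.

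**Figure D3:**
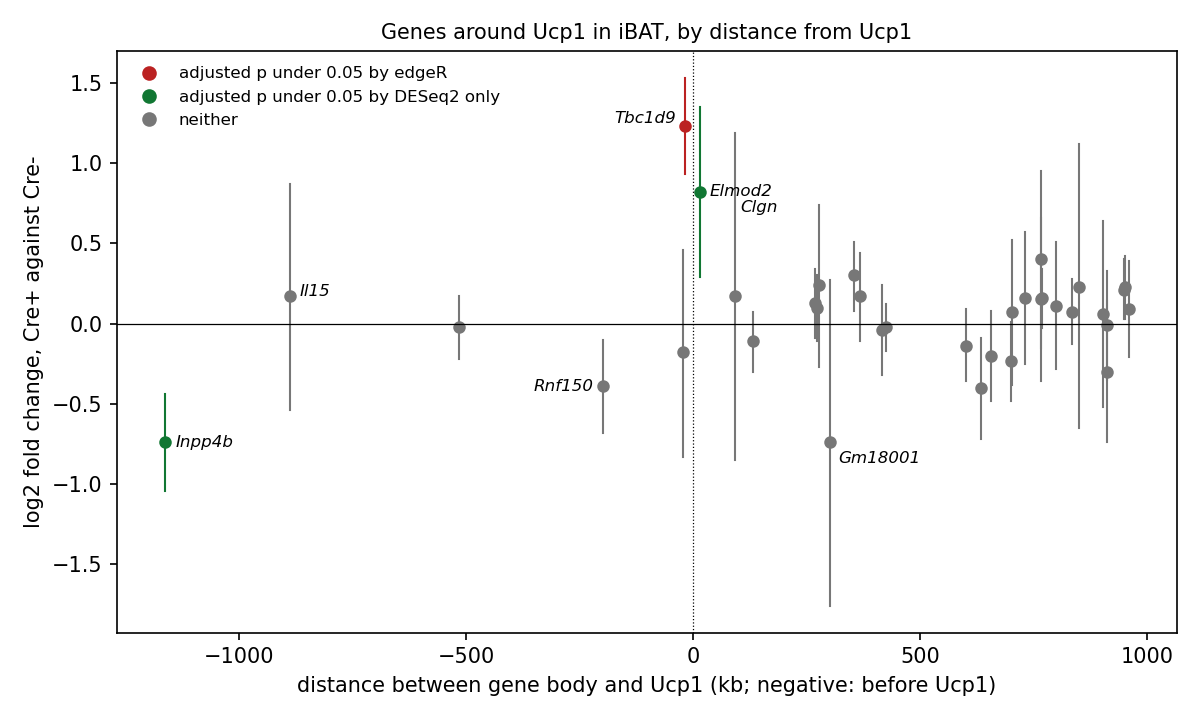
Log2 fold change of Cre+ against Cre- mice (points, with 95% intervals from edgeR) for 35 of the 36 tested genes, by the distance in kb between the gene and Ucp1 (dotted line). Tbc1d9 and Elmod2 at 1.23 and 0.82 are the 2 highest values, and the genes beyond 100 kb lie between -0.74 and 0.40.

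By distance, 1 of 4 genes tested within 100 kb of Ucp1 was called by edgeR, and 0 of 11, 0 of 20 and 0 of 1 in the bands farther out. By DESeq2 the counts were 2, 0, 0 and 1. In the whole region, edgeR called 1 of 36 genes tested (2.78%) against 0.164% of all genes. On the rest of chromosome 8, edgeR called 0 of 909 (0%), and DESeq2 called 3 higher and 4 lower. This rest includes Ucp1, Dnajb1 and Prkaca, which were left out of the region. Tbc1d9 alone makes up the whole of the 2.78%. Genotypes did not overlap for 3 of the 36 genes (8.33%, with 2 higher and 1 lower), against 2.67% of all genes tested and 1.32% of the rest of chromosome 8. Without Tbc1d9 and Elmod2 this held for 1 of 34 genes (2.94%), near the share of all genes. The median log2 fold change was 0.09 over the 36 genes, 0.08 without Tbc1d9 and Elmod2, 0.02 over the rest of chromosome 8 and 0.00 over all genes. With a start anywhere from 80000000 to 87000000, 92 genes were tested and Tbc1d9 alone was called.

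**Figure D4:**
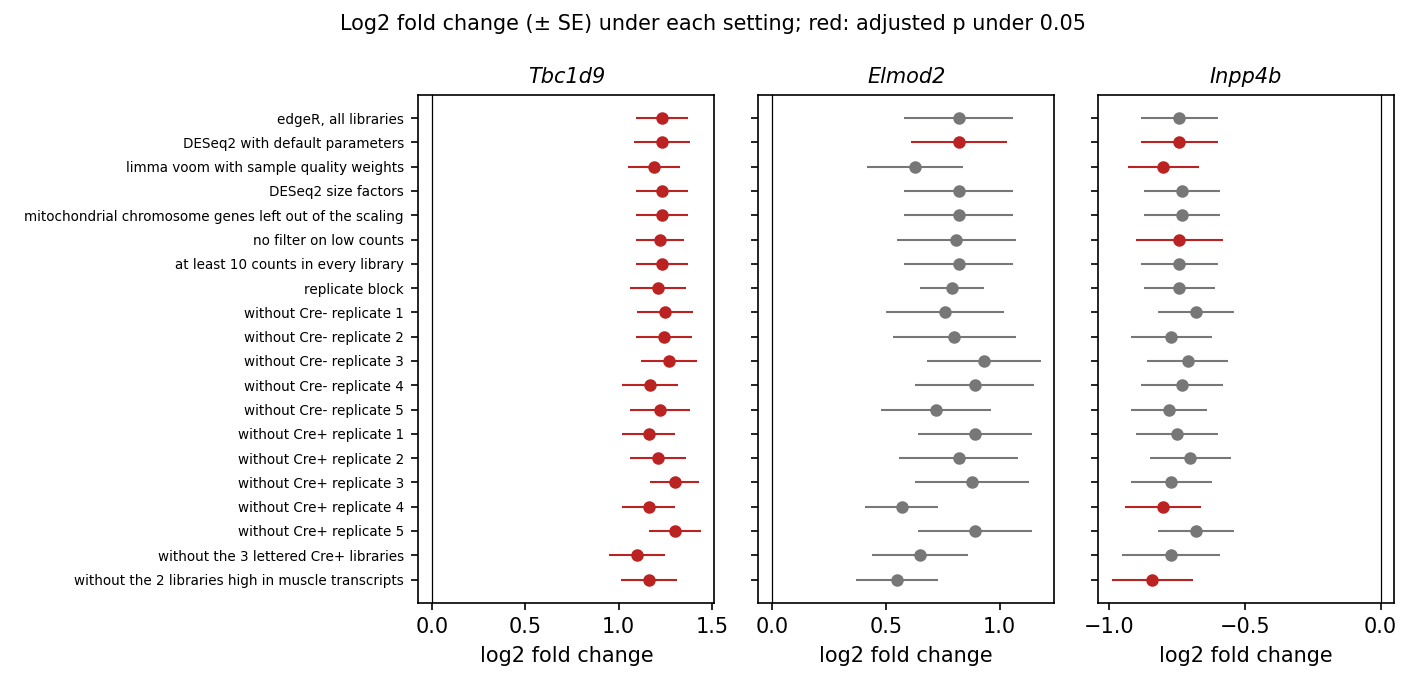
Log2 fold change (points, with SE) of Tbc1d9, Elmod2 and Inpp4b under edgeR with all libraries and under each alternative, with red for an adjusted p under 0.05. Tbc1d9 is called under every setting shown, Elmod2 by DESeq2 alone and Inpp4b under 5 of 19 alternatives.

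The genes around Ucp1 differed widely in level. Per length, in transcripts per 1000000 transcripts (TPM) of Cre- mice, the 36 genes ran from 0.0729 TPM for Clgn to 352 TPM for D8Ertd738e, with a median of 4.51 TPM. D8Ertd738e is named after its values were seen, as the gene of the highest level. Tecr (272 ± 35.6 TPM, SD, n = 5) and Ndufb7 (96.1 ± 4.4 TPM) followed, and Adgre5 and Gipc1 had 25.0 ± 2.38 and 24.8 ± 2.47 TPM, where these last differed by less than their SD. Scoc (15.2 ± 1.51 TPM) and Elmod2 (12.7 ± 3.46 TPM) differed by less than the SD of Elmod2. Tbc1d9 was among the lower genes at 2.19 ± 0.319 TPM. Ucp1 itself had 5966 ± 731 TPM, more than 10 times the level of any of them.

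**Figure D5:**
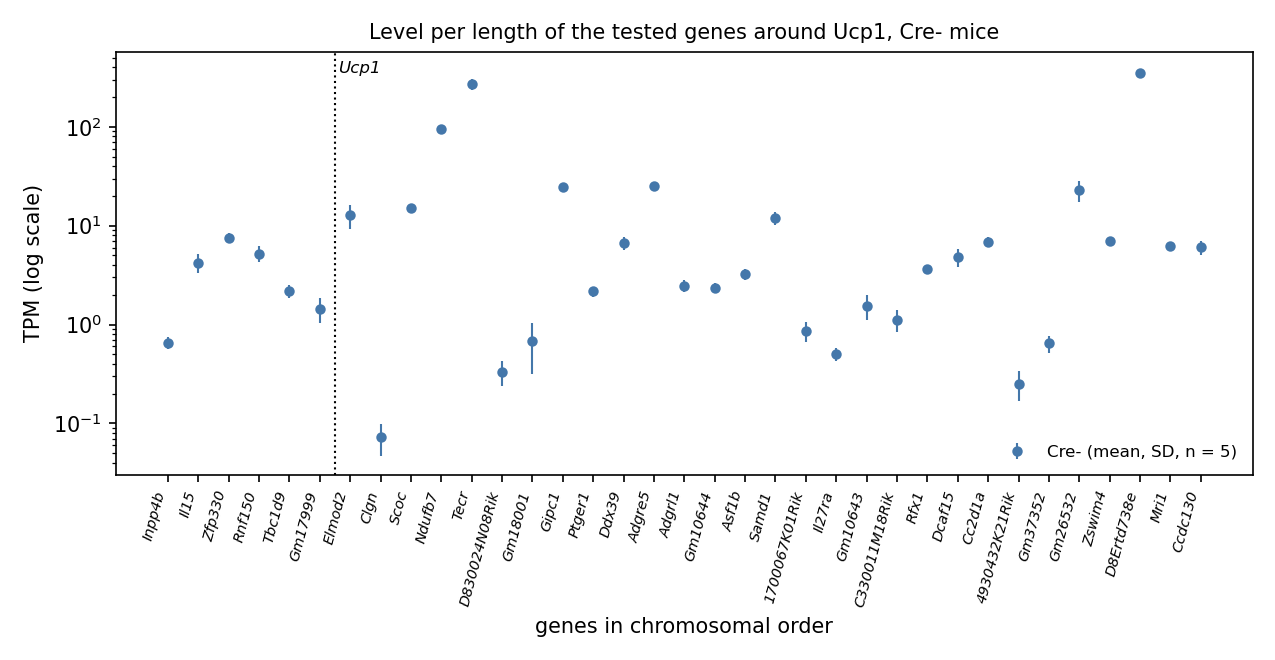
Level per length (TPM, log scale) of 35 of the 36 tested genes in chromosomal order in Cre- mice (points, mean; bars, SD, n = 5), with a dotted line at the place of Ucp1. Tecr, Ndufb7 and D8Ertd738e lie highest, Tbc1d9 and Elmod2 at 2.19 and 12.7 TPM.

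Of the 43 genes that were not tested, 15 had no count in any library and 28 had at most 99 counts in all libraries together. The genotypes of 2 of them did not overlap in CPM, and these are named after their values were seen. How often this occurs among all genes with so few counts was not computed, so 2 cannot be called many or few. Gm45449, which shares exonic bases with Rnf150, had 1, 0, 0, 0 and 1 counts in Cre- and 2, 4, 2, 7 and 2 counts in Cre+ replicates 1 to 5. Rln3, the gene of the neuropeptide relaxin-3, had 0, 0, 0, 1 and 0 counts in Cre- and 4, 2, 2, 2 and 2 counts in Cre+ replicates 1 to 5. Without the filter on low counts, edgeR called neither. By RefSeq gene type, the 43 genes included 11 pseudogenes, 10 microRNA genes and 6 protein-coding genes, whereas 27 of the 36 tested genes were protein-coding. Genes without a RefSeq type, Ddx39 among them, are in none of these counts. MicroRNAs are too short to be captured well by poly(A) selected libraries, so their low counts say nothing about the mature forms.

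Other genes of the families of TBC1D9 and ELMOD2 lie elsewhere in the genome, and edgeR called none of those. Of 40 TBC family genes tested, edgeR called 1, Tbc1d9, and of 37 on other chromosomes edgeR and DESeq2 called 0. Among these 37, an unadjusted p under 0.05 was reached by 2 with higher and 2 with lower values. Over all genes tested, 12.3% reached it in either direction. The median difference of the 37 genes was 0.03 on the log2 scale. Tbc1d9b, the closest relative by name, had 0.07 (SE 0.06) at a mean of 74.2 CPM in Cre- mice. Tbc1d13 had 0.30 (SE 0.08, adjusted p = 0.149 from edgeR). Of 11 tested genes of the ELMO family, ARL2 and its partners, edgeR called 0, whereas DESeq2 called 1, Elmod2. An unadjusted p under 0.05 from edgeR was reached by 3 of them, Elmod2 included, all with higher values. The share over all genes tested was the same 12.3% in either direction. The related Elmod1 and Elmod3 had 0.18 (SE 0.31) and 0.06 (SE 0.07), and Arl2, whose product ELMOD2 acts on, had 0.12 (SE 0.07).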

How the data were processed

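Poly(A) selected RNA of iBAT was sequenced as read pairs. Per the file headers and the submitters' processing notes, the authors used Trimmomatic for trimming and STAR for alignment to GRCm39, without versions given in the sources used here. They deposited raw counts per gene from featureCounts 2.0.1 on GENCODE M28. Mates were counted singly, without strand, each read going to the gene of largest overlap, and multi-mapping reads were left out, so values of overlapping genes are uncertain. Symbols matched 94% of gene identifiers.

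Counts of 17690 genes that passed filterByExpr (minimum count 10, minimum total 15) were fitted with edgeR 4.0.16 in R 4.3.3 (TMM, robust quasi-likelihood F test, Benjamini-Hochberg over all genes tested, calls at an adjusted p under 0.05). The p-values set the difference between genotypes against the spread between single mice, which the fit estimates with information from other genes. SE is the log2 fold change divided by the square root of F, and 95% intervals follow from it. TPM were computed from CPM and exonic length. Distances are between gene bodies. Alternatives were DESeq2 1.42.0 with default parameters, as the authors used it, and limma 3.58.1 voom. Further ones were other scaling and filters, the replicate number as a block, other windows and left-out libraries. In simulated counts with 200 of 17690 genes changed, edgeR recovered 26% of genes changed by 0.5 and 59% of those changed by 1 on the log2 scale, with 4 false calls.

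The region, the lists and the rule for naming genes were chosen with earlier results of these data known. The rule names tested genes with a start within 500 kb of Ucp1, genes called by edgeR or DESeq2, up to 10 more with the smallest p, up to 8 with the highest level per length, the lowest and highest log2 fold change and up to 5 more whose genotypes do not overlap. Predicted genes and clones without a name are counted only, unless called or within 100 kb. 1 tested gene of the region enters the counts and medians but is not reported here by name and is not drawn.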

Additional observations from a re-analysis of the deposited data

Results flagged for a closer look

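In groups of 5 mice, a value was looked at again where its gap to the nearest other mouse took up more than 0.71 of the whole range. Of 52 groups of 26 genes examined, 5 met this, where chance gives about 1 in 20. Elmod2 had 174 CPM in Cre+ replicate 4 against 83.5 to 106 CPM in the other Cre+ mice. Il15 had 9.42 CPM in Cre+ replicate 3 against 2.84 to 4.03 CPM. Il27ra had 1.16 CPM in Cre+ replicate 1 against 0.76 to 0.787 CPM. Ccdc130 had 9.06 CPM in Cre- replicate 1 against 6.26 to 7 CPM. RetSat had 39 CPM in Cre+ replicate 3 against 18 to 23 CPM. None of these mice was left out of the values above.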

How the results depend on the processing

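Tbc1d9 and RetSat kept their direction and their call under all 19 alternatives, with log2 fold changes of 1.10 to 1.30 and -3.20 to -2.64. Elmod2 ran from 0.55 to 0.93 and passed the threshold by DESeq2 alone (0.82). DESeq2 called 2 genes of the region higher and 1 lower, the latter Inpp4b. Among genes that share no exonic base, 0 were higher, because Tbc1d9 is not one of them. Inpp4b was the 1 lower gene by voom, without the filter on low counts and without both muscle-rich libraries, and leaving out single libraries gave 0 to 1 lower, the 1 coming without Cre+ replicate 4. Over all genes these settings called 147, 92, 289 and 331 genes, against 29. The 3 lettered Cre+ libraries are those whose library number in the file headers ends in a letter, which is not explained in the sources used here. Without them, the median of the region was 0.00, Ndufb7 had -0.11, Dcaf15 0.00 and Clgn -0.90. Gipc1, at 0.30 with all libraries, had 0.09 (SE 0.11, adjusted p = 0.872 from edgeR) without the lettered libraries. Clgn also had -0.17 by voom and -0.13 without the muscle-rich libraries, where Adgre5 had 0.01. Leaving out single libraries turned the sign of Il15 (-0.27 to 0.30), Clgn (-0.32 to 0.41), Ddx39 (-0.15 to 0.02) and Adgre5 (-0.05 to 0.01). The cause was not tested. Same-numbered mice of the 2 genotypes did not deviate together (correlations of -0.195 to 0.216), and 2 of 5 correlated best with their own number. With the replicate number as a block, Tbc1d9 had 1.21 and Elmod2 0.79, edgeR called 23 genes in all, and the counts in the region, 1 higher and 0 lower, did not move. The total of called genes ranged from 9 to 331 when single libraries were left out. At these depths, genes with few counts, such as Clgn and Mgat4d, cannot show a moderate difference.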
